A study of Bos taurus with 16 samples.

Results

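Messenger RNA of glucose breakdown was described here through 39 genes: 23 of glycolysis with its sugar and lactate transporters, 6 of the pentose phosphate pathway and 10 of pyruvate entry and the citrate cycle. The genes were chosen by pathway, after a lower level of glycolysis genes in part of the treatment libraries had been seen in these same counts. Of the 39 genes, 37 had counts, out of 20629 features (genes, or transcripts without a gene symbol) in all. HK2, a hexokinase, and LDHB, a lactate dehydrogenase subunit, had no counts listed under their symbols and were not analysed here. In each comparison within 1 kind of library 34 of the 37 genes passed the filter on low counts: 19 of glycolysis, 6 of the pentose phosphate pathway and 9 of the citrate cycle. ENO2, PFKFB4 and OGDH did not pass.

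Glycolysis splits glucose into pyruvate in the cytosol, and lactate dehydrogenase turns pyruvate into lactate while it renews the NAD that the pathway needs. The pentose phosphate pathway branches off after the first step, makes NADPH and ribose, and returns carbon to glycolysis through transketolase and transaldolase. Pyruvate that enters the mitochondrion passes the pyruvate dehydrogenase complex, which PDK1 switches off by phosphorylation, and is then oxidised in the citrate cycle. In the ovarian follicle the granulosa layer has no blood vessels of its own, and its glycolysis is known for supplying pyruvate and lactate to the oocyte.

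The study sequenced poly(A) RNA of cells pelleted from the aspirated dominant follicle of lactating Holstein cows (Bos taurus), 63 ± 3 days after calving, following synchronisation of ovulation with GnRH and prostaglandin F2α. Its title asks about lasting effects of a past uterine disease on granulosa cells. The labels name 9 libraries control and 7 treatment, without saying what treatment stands for, which cows had disease or received an antibiotic, or whether each library is a separate cow. The p-values below therefore measure only the spread between these libraries, which may be technical.

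The tissue field of every library reads blood, whereas the protocols describe granulosa cells, and the libraries were of 2 kinds. INHA, which encodes the inhibin alpha subunit made by granulosa cells, was above 1000 CPM (a feature's counts as its share of the library, scaled to a common total) in 9 libraries and under 200 CPM in 7. The lowest of the 9 had 1759 CPM and the highest of the 7 had 111 CPM. The 9 are called granulosa-rich here (replicates 2, 3, 4, 7 and 8 of control, replicates 4, 5, 6 and 7 of treatment). The other libraries are called leukocyte-rich (replicates 1, 5, 6 and 9 of control, replicates 1, 2 and 3 of treatment). The kinds were set by INHA alone. Summed pan-leukocyte markers, PTPRC among them, were 5582 to 7878 CPM in the leukocyte-rich and 15.5 to 1073 CPM in the granulosa-rich libraries. Some leukocyte-rich libraries also held many counts of other cells, given below. The label was compared within each kind, and values of single libraries are given in the order of these replicate numbers. Libraries held 8004595 to 14138964 transcript counts, so 3 counts correspond to 0.212 to 0.375 CPM. Levels are compared between libraries for 1 gene and not between genes, because no transcript lengths were used.

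In the granulosa-rich libraries the fitted value of treatment against control was below 0 in 16 of 19 tested glycolysis genes and above 0 in PFKP, SLC16A1 and PFKFB3, whereas genes of the other pathways lay on both sides. None of the 34 tested genes passed the test (lowest adjusted p of edgeR: 0.983). The summed level of the 21 glycolysis genes averaged 10653 ± 1131 CPM over the 5 control libraries and 6896 ± 1047 CPM over the 4 treatment libraries (mean ± SD). The single libraries held 11212, 11075, 8976, 10116 and 11887 CPM in control and 6822, 7702, 7617 and 5441 CPM in treatment, so the groups did not overlap. The sum weights the abundant genes most, such as GAPDH and PGK1. The pentose phosphate sum was 1032 ± 158 CPM in control and 1067 ± 115 CPM in treatment libraries, and these ranges overlapped. The citrate cycle sum was 2329 ± 338 CPM in control and 2582 ± 818 CPM in treatment libraries, with the treatment libraries on both sides of the control range. The highest sum, 3497 CPM in treatment replicate 7, held 2723 CPM of SUCLA2, against 159 to 219 CPM of this gene in the other treatment libraries. The higher treatment mean therefore leans on 1 gene in 1 library. PDK1, an inhibitor of pyruvate entry, is also part of this sum. In bulk RNA, fewer cells of a type and less RNA per cell cannot be told apart.

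**Figure D1:**
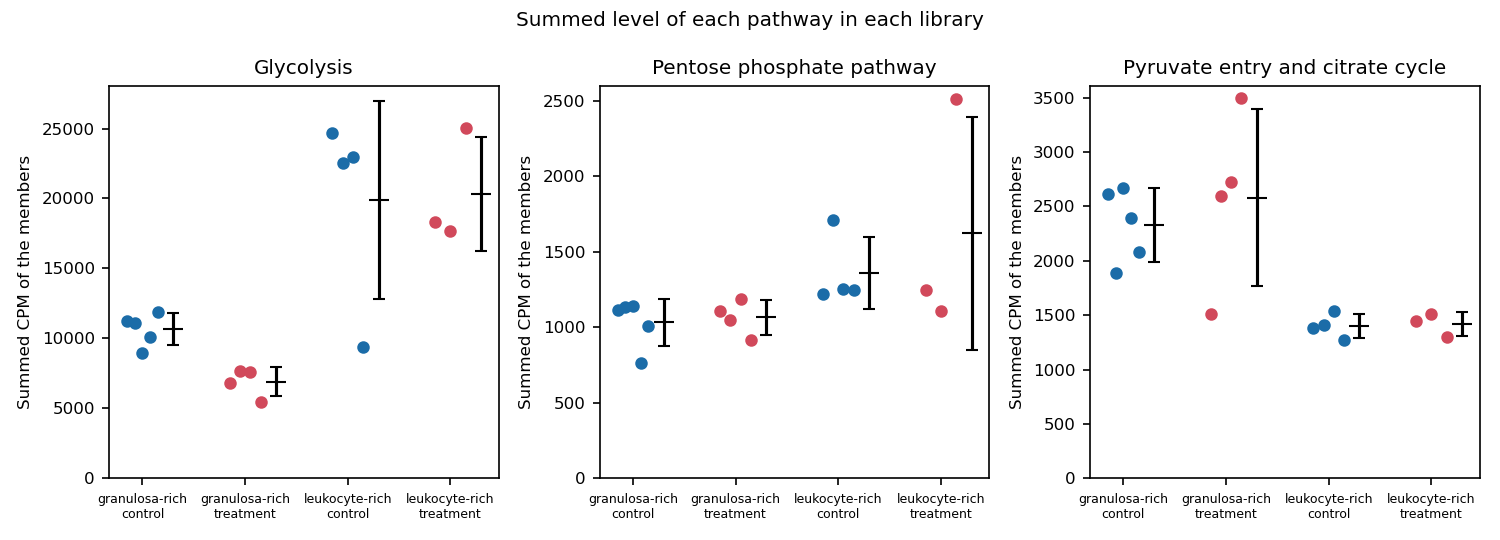
Summed CPM of the genes of each pathway in each library (vertical axis), by kind of library and label (horizontal axis); each point is 1 library and the bar beside each group is its mean ± SD. The 4 granulosa-rich treatment libraries lie between 5441 and 7702 CPM for glycolysis, below the 5 control libraries at 8976 CPM and above, while the other pathways overlap.

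By edgeR's quasi-likelihood test with Benjamini-Hochberg adjustment over 9272 features, no gene of these pathways passed an adjusted p of 0.05, and no feature of the whole table did (percent called: 0%). Without adjustment 433 features had a p under 0.05, and the lowest adjusted p of any member was 0.983. The fitted log2 fold change of treatment against control was below 0 in 16 of 19 glycolysis genes, 2 of 6 pentose phosphate genes and 5 of 9 citrate cycle genes, against 47.1% of all features. An unadjusted p under 0.05 with a lower value was seen in 9 glycolysis genes, 1 pentose phosphate gene (TKT) and 1 citrate cycle gene (PDK1), against 2.72% of all features. The median log2 fold change was -0.82 for glycolysis, 0.33 for the pentose phosphate pathway and -0.07 for the citrate cycle, beside 0.04 for all features. A lower level of glycolysis genes in these libraries was known when the set was drawn up, so these counts describe it and are not independent support for it. DESeq2, run as an alternative, called 27 features, LDHA being the only one of the 34 members.

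**Figure D2:**
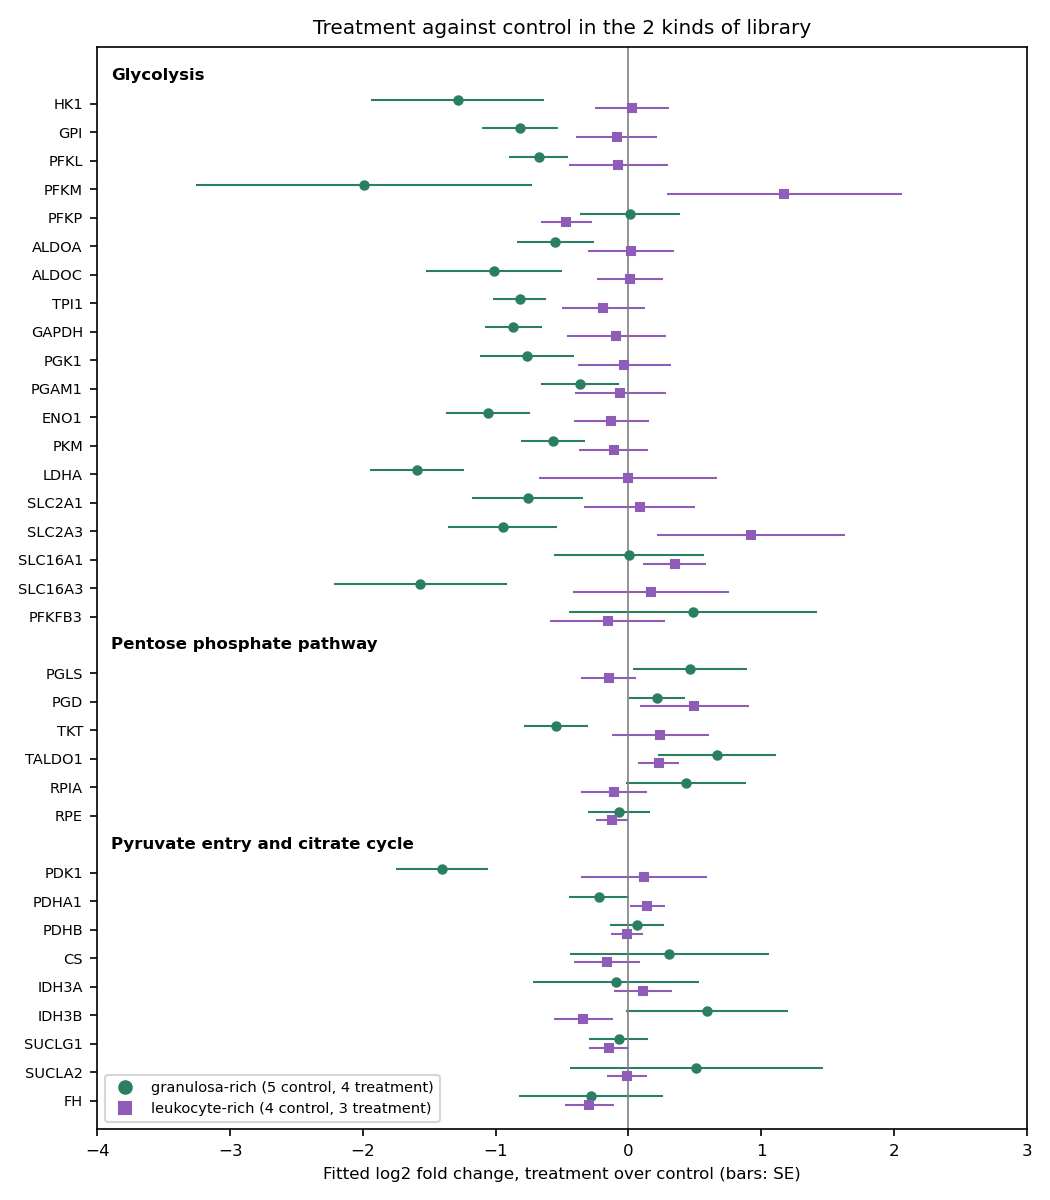
Fitted log2 fold change of treatment against control for each of the 34 tested genes, with its standard error as a bar, in granulosa-rich and leukocyte-rich libraries. In the granulosa-rich libraries 16 of 19 glycolysis genes lie below 0, with a median of -0.82; in the leukocyte-rich libraries the glycolysis median is -0.03.

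The treatment libraries were all below the control libraries for 4 of the 34 genes, LDHA, GAPDH, TPI1 and PDK1, on the scale of CPM; over all features this share was 0.55%. The reverse, every treatment library above every control library, was seen for 0 of the 34 genes and for 1.2% of all features. With TMM scaling, which also takes the composition of a library into account, 7 genes lay apart in the lower direction (0.917% of all features), GPI, ENO1 and PKM being the additional ones. None lay apart in the higher direction (0.669% of all features).

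Glucose enters cells through facilitative transporters. SLC2A1, the widespread transporter GLUT1, measured 172, 205, 253, 295 and 265 CPM in granulosa-rich control and 100.2, 193, 90.9 and 257 CPM in treatment libraries. Treatment replicates 4 and 6 lay below all control libraries and the others within their range. The fitted log2 fold change was -0.76 ± 0.42 (SE). SLC2A3, the high-affinity transporter GLUT3, measured 338, 530.0, 276, 282 and 669.8 CPM in control and 175, 404, 205 and 119.9 CPM in treatment libraries. Only treatment replicate 5 reached the control range, and the fitted log2 fold change was -0.95 ± 0.41 (SE), which did not pass the test (unadjusted p = 0.043). The log2 ratio of SLC2A3 to SLC2A1 averaged 0.75 ± 0.68 over the 5 control libraries and 0.49 ± 1.07 over the 4 treatment libraries (mean ± SD), a smaller difference than the spread of either group.

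The first steps trap and commit the sugar. HK1, the hexokinase that phosphorylates glucose, measured 12.9, 14.3, 11.8, 5.43 and 17.6 CPM in control and 7.91, 0.508, 10.9 and 4.17 CPM in treatment libraries. The groups overlapped through control replicate 7, and the value of treatment replicate 5 rests on few counts; the log2 fold change was -1.29 ± 0.65 (SE). GPI, which converts glucose 6-phosphate to fructose 6-phosphate, measured 995, 771, 700.0, 608 and 863 CPM in control and 618, 456, 709.9 and 247 CPM in treatment libraries. Its log2 fold change was -0.82 ± 0.29 (SE), with treatment replicates 4 and 6 inside the control range on the CPM scale.

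Phosphofructokinase, the committed step, has a liver-type, a muscle-type and a platelet-type subunit, whose values are given in turn. PFKL, the liver type, measured 482, 547, 333, 282 and 355 CPM in control and 247, 297, 304 and 249.8 CPM in treatment libraries. Control replicate 7 lay among the treatment libraries, and the log2 fold change was -0.68 ± 0.22 (SE). PFKP, the platelet type, measured 36.7, 86.1, 45.8, 46.5 and 58.5 CPM in control and 34.1, 70.7, 44.1 and 90.5 CPM in treatment libraries. These groups overlapped throughout, with a log2 fold change of 0.01 ± 0.38 (SE) whose sign turned in 9 of 21 alternative analyses. PFKM, the muscle type, was near the limit of detection, at 4.44, 1.75, 1.06, 4.30 and 0.432 CPM in control and 0.989, 0, 2.18 and 0 CPM in treatment libraries. The log2 ratio of PFKL to PFKP averaged 2.89 ± 0.47 over the 5 control libraries and 2.29 ± 0.66 over the 4 treatment libraries (mean ± SD), and the groups overlapped.

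PFKFB3, which makes the activator of phosphofructokinase fructose 2,6-bisphosphate, lay between 0 and 2.99 CPM in all granulosa-rich libraries. PFKFB4, its relative, had 1 count in 1 of the 16 libraries. The aldolases ALDOA and ALDOC, which split the sugar into triose phosphates, had log2 fold changes of -0.55 ± 0.29 and -1.01 ± 0.51 (SE), with overlapping groups in both cases. Counts of ALDOA came from 3 RefSeq transcripts. The one with most counts ran from 34.1 to 141 CPM in control and from 45.7 to 159 CPM in treatment libraries. The next had 36.6 to 66.9 CPM in control and 10.1 to 34.9 CPM in treatment libraries, and the third 8.74 to 17.2 against 4.01 to 14.2 CPM.

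Among the glycolysis genes, only TPI1, GAPDH and LDHA had groups that did not overlap on the CPM scale. TPI1, which interconverts the triose phosphates, measured 1588, 1522, 1396, 1348 and 1614 CPM in control and 1038, 873, 1083 and 863 CPM in treatment libraries. The highest treatment library was below the lowest control library, and the log2 fold change was -0.82 ± 0.20 (SE; edgeR, unadjusted p = 0.00187, adjusted p = 0.983). GAPDH, which oxidises glyceraldehyde 3-phosphate and is often used as a reference gene, measured 2958, 3161, 2464, 2680 and 3122 CPM in control and 1973, 1696, 2044 and 1455 CPM in treatment libraries. Again the groups did not overlap, and the log2 fold change was -0.87 ± 0.21 (SE; edgeR, unadjusted p = 0.00204, adjusted p = 0.983). Many glycolysis genes, GAPDH and LDHA among them, have near-identical pseudogene copies, and how reads that match several copies were counted is not given in the sources used here, so their levels are uncertain to that extent.

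PGK1, the first ATP-making step, measured 2631, 2361, 2240, 3126 and 3271 CPM in control and 1396, 2710, 1824 and 1250 CPM in treatment libraries. Treatment replicate 5 lay inside the control range, and the others below it. The log2 fold change of PGK1 was -0.77 ± 0.35 (SE). PGAM1, the next enzyme, had the smallest difference in lower glycolysis, with 478 to 652 CPM in control and 349.7 to 649.7 CPM in treatment libraries and a log2 fold change of -0.36 ± 0.29 (SE).

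ENO1, the enolase of most tissues, measured 1045, 861, 449, 618 and 667 CPM in control and 580.0, 229, 551 and 257 CPM in treatment libraries. Control replicate 4 lay among the treatment libraries on this scale, and the log2 fold change was -1.06 ± 0.32 (SE; edgeR, unadjusted p = 0.00692, adjusted p = 0.983). ENO2, the neuronal enolase, had between 0 and 8 counts in each of the 16 libraries. PKM, the pyruvate kinase that makes pyruvate, measured 55.6, 68.7, 45.0, 29.3 and 55.4 CPM in control and 38.2, 32.3, 42.6 and 37.2 CPM in treatment libraries. Control replicate 7 was the lowest library of both groups, and the log2 fold change was -0.57 ± 0.24 (SE).

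LDHA, the subunit that favours lactate formation, had the lowest p of the 34 genes. It measured 143, 144, 117, 126 and 104 CPM in granulosa-rich control and 58.1, 16.6, 61.1 and 64.0 CPM in treatment libraries. No treatment library reached the control range, and treatment replicate 5 stood below the others of its group. The log2 fold change was -1.59 ± 0.35 (SE; edgeR, unadjusted p = 0.00101, adjusted p = 0.983). Over 21 alternative analyses it lay between -1.76 and -1.33, and in 1 of them, DESeq2, it passed with an adjusted p of 0.0273. Counts of LDHA came from 3 RefSeq transcripts, of which 1 held 87.1 to 99.8% of the gene's counts in the granulosa-rich libraries.

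Lactate leaves and enters cells through monocarboxylate transporters. SLC16A3, the transporter MCT4 of lactate-exporting cells, had 2.19 to 12.8 CPM in control and 0.787 to 4.55 CPM in treatment libraries, with a log2 fold change of -1.57 ± 0.65 (SE) at low counts. Of its 3 transcripts, the one with most counts had 1.70 to 11.7 CPM in control and 0.203 to 2.37 CPM in treatment libraries. The others had 0.212 to 1.59 against 0.236 to 1.88 CPM, and 0 to 0.923 against 0 to 0.297 CPM. SLC16A1, the transporter MCT1, had 4.46 to 10.9 CPM in control and 1.12 to 11.6 CPM in treatment libraries and a log2 fold change of 0.01 ± 0.57 (SE).

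**Figure D3:**
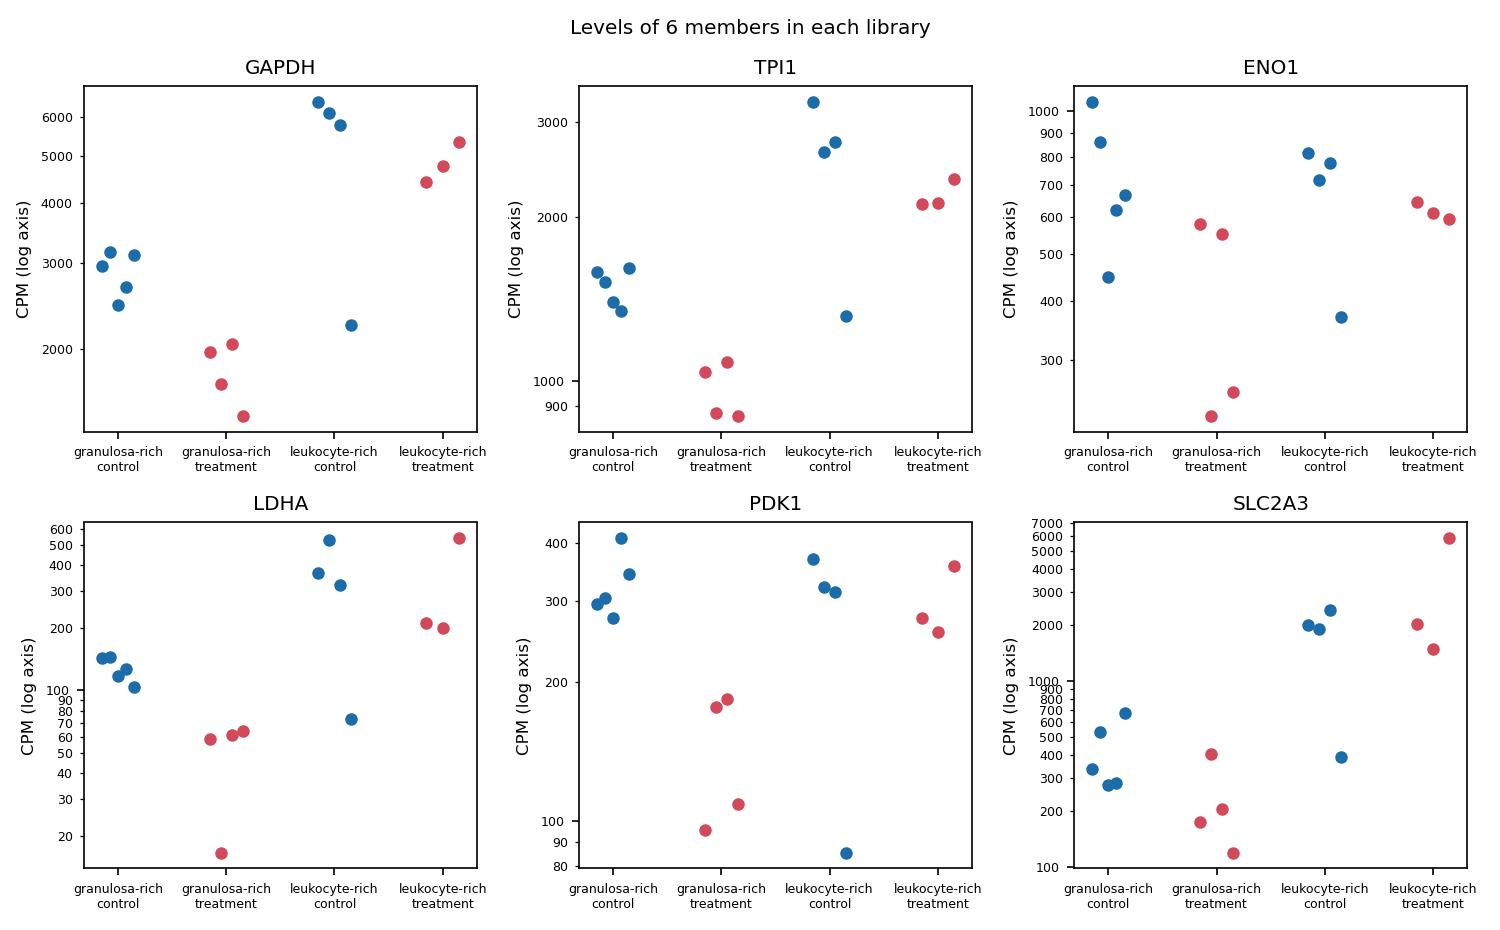
CPM of GAPDH, TPI1, ENO1, LDHA, PDK1 and SLC2A3 in each library on log axes; each point is 1 library, control in blue and treatment in red. In the granulosa-rich libraries GAPDH, TPI1, LDHA and PDK1 do not overlap between labels, and among the leukocyte-rich control libraries replicate 9 is the lowest in all 6 genes.

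Pyruvate entry was described by PDK1 and the dehydrogenase it inhibits. PDK1 measured 295, 304, 275, 409.7 and 343 CPM in control and 95.3, 176, 184 and 109 CPM in treatment libraries. The groups did not overlap, and the log2 fold change was -1.41 ± 0.35 (SE; edgeR, unadjusted p = 0.00204, adjusted p = 0.983). PDHA1, the catalytic subunit that PDK1 phosphorylates, measured 157, 162, 146, 143 and 174 CPM in control and 137, 102, 183 and 195 CPM in treatment libraries. Treatment libraries lay both above and below the control range, and the log2 fold change was -0.22 ± 0.23 (SE). PDHB, the partner subunit, had a log2 fold change of 0.06 ± 0.21 (SE).

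Ratios within a library do not depend on its scaling. The log2 ratio of LDHA to PDHA1, the lactate branch against mitochondrial entry, averaged -0.31 ± 0.26 over the 5 granulosa-rich control libraries and -1.76 ± 0.60 over the 4 treatment libraries (mean ± SD). Its control values ran from -0.75 to -0.14 and its treatment values from -2.62 to -1.24, so the groups did not overlap. The log2 ratio of PDK1 to PDHA1 was 1.05 ± 0.27 in control and -0.14 ± 0.71 in treatment libraries. Here the highest treatment value, 0.79, was below the lowest control value, 0.91. These ratios were formed with the levels known and were not tested.

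In the pentose phosphate pathway the direction differed from gene to gene. PGD, which makes NADPH in the oxidative branch, measured 498, 433, 433, 241 and 397 CPM in control and 467, 508, 589 and 490.3 CPM in treatment libraries. Only control replicate 2 lay above the lowest treatment library, and the log2 fold change was 0.22 ± 0.21 (SE). TKT, the transketolase that returns carbon to glycolysis, measured 502, 541, 598, 457 and 474 CPM in control and 488, 395, 463 and 269.7 CPM in treatment libraries. It was the only gene of the pathway with an unadjusted p under 0.05, with a log2 fold change of -0.55 ± 0.24 (SE) and overlapping groups. The log2 ratio of TKT to PGD averaged 0.40 ± 0.34 over the 5 control libraries and -0.38 ± 0.38 over the 4 treatment libraries (mean ± SD), with a narrow overlap.

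TALDO1, the transaldolase, had 5.11 to 17.3 CPM in control and 9.91 to 21.6 CPM in treatment libraries, with a log2 fold change of 0.67 ± 0.45 (SE). PGLS, the lactonase of the oxidative branch, had 13.5 to 31.9 CPM in control and 18.0 to 64.7 CPM in treatment libraries. Its log2 fold change was 0.46 ± 0.43 (SE). RPIA and RPE, the isomerase and epimerase of the pentose phosphates, had log2 fold changes of 0.44 ± 0.45 and -0.07 ± 0.24 (SE). None of these 4 genes had groups that lay apart.

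Inside the citrate cycle no gene had an unadjusted p under 0.05. CS, citrate synthase, which brings acetyl groups into the cycle, measured 17.5, 15.9, 10.2, 2.84 and 10.0 CPM in control and 24.6, 0.610, 16.6 and 21.0 CPM in treatment libraries. All but treatment replicate 5 lay in the upper part of the control range or above it, and that replicate was the lowest of all. The log2 fold change of CS was 0.31 ± 0.75 (SE), and 0.70 without treatment replicate 5. OGDH, a subunit of 2-oxoglutarate dehydrogenase, had 0, 0, 0.0707, 0 and 0.216 CPM in control and 0, 0, 0 and 0.157 CPM in treatment libraries, which is at or under the level of 3 counts.

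Single libraries carried wide ranges in the middle of the cycle. IDH3A, the catalytic subunit of NAD-dependent isocitrate dehydrogenase, measured 1483, 804, 1207, 625 and 827 CPM in control and 519, 1737, 1621 and 133 CPM in treatment libraries. Treatment libraries lay at both ends, and the log2 fold change was -0.09 ± 0.62 (SE). Over 21 alternative analyses it ran from -2.25 to 0.27 and kept its sign in 15. SUCLA2, the ADP-forming subunit of succinyl-CoA ligase, measured 209.8, 178, 669, 936 and 236 CPM in control and 195, 159, 219 and 2723 CPM in treatment libraries. Its log2 fold change of 0.51 ± 0.96 (SE) became -1.61 without treatment replicate 7. IDH3B, SUCLG1 and FH, a further subunit of isocitrate dehydrogenase, the alpha subunit of succinyl-CoA ligase and fumarase, had log2 fold changes of 0.59 ± 0.61, -0.07 ± 0.22 and -0.29 ± 0.54 (SE). Their signs also turned: without treatment replicate 5, which had 42.3 CPM of IDH3B, that gene had -0.50 and FH 0.017, and SUCLG1 had 0.068 without treatment replicate 7 and 0.085 with library size as the only scaling.

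**Figure D4:**
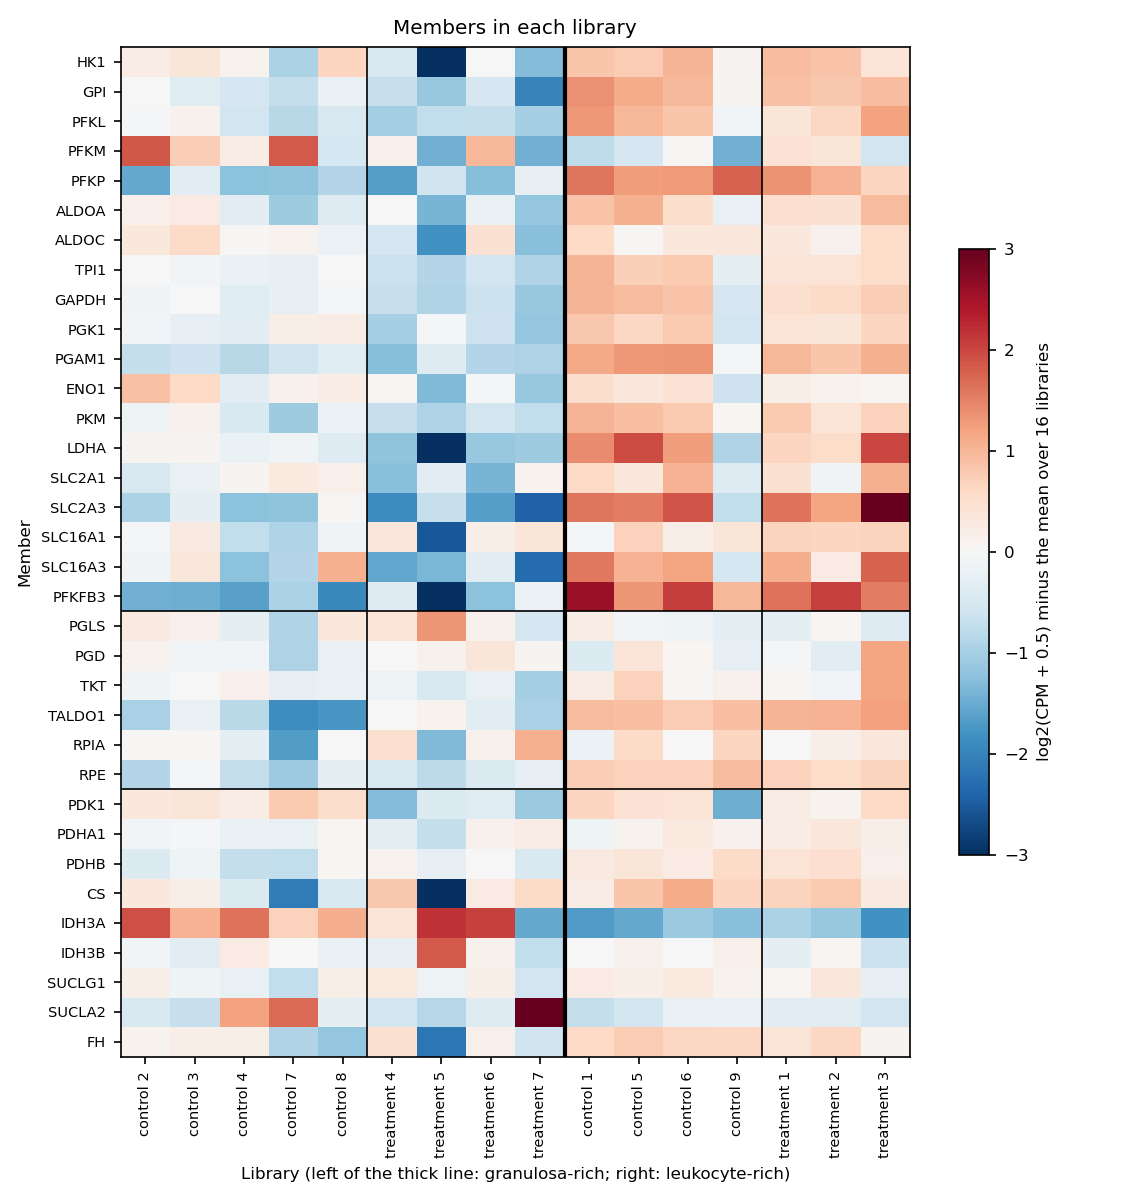
Level of each tested gene in each library, as log2(CPM + 0.5) minus the mean of that gene over the 16 libraries; rows are genes by pathway, columns are libraries by kind and label, and colour gives the difference, with the scale ending at 3 in both directions. Most glycolysis rows have their lowest values in the granulosa-rich treatment columns, and leukocyte-rich control replicate 9 is lower than the other leukocyte-rich control libraries in most glycolysis rows.

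Other genes of the same pathways did not share the median of the glycolysis members. Among 15 tested genes of a further glycolysis list (other isozymes, transporters, gluconeogenesis and regulators) 8 were lower and 7 higher. Their median log2 fold change was -0.05, and 47.1% of all features were lower. TIGAR, a fructose bisphosphatase that lowers glycolytic flux, measured 63.6, 24.3, 66.8, 51.3 and 34.0 CPM in control and 30.0, 21.7, 33.2 and 26.5 CPM in treatment libraries. These overlapped through control replicate 3, with a log2 fold change of -1.04 ± 0.40 (SE).

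Of 9 further genes around the pentose phosphate pathway 7 were lower (47.1% of all features), none with an unadjusted p under 0.05, with a median of -0.33. RBKS, ribokinase, had a log2 fold change of -0.66 ± 0.58 (SE), with overlapping groups.

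Of 20 further genes of the citrate cycle and pyruvate entry 11 were lower (47.1% of all features), with a median of -0.02. SUCLG2, the GDP-forming subunit of succinyl-CoA ligase, measured 150.3, 97.0, 105, 105 and 137 CPM in control and 87.5, 29.2, 92.1 and 77.7 CPM in treatment libraries. No treatment library reached the control range (0.55% of all features lay apart in this direction), and the log2 fold change was -0.97 ± 0.31 (SE; edgeR, unadjusted p = 0.00976, adjusted p = 0.983). IDH2, the mitochondrial NADP-dependent isocitrate dehydrogenase, had a log2 fold change of 0.58 ± 0.39 (SE).

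HIF1A encodes the oxygen-sensitive subunit of a factor known to induce SLC2A1, PDK1 and LDHA. Its mRNA measured 7365, 6473, 7314, 8053 and 6347 CPM in control and 6992, 5766, 8180 and 9963 CPM in treatment libraries. The groups overlapped, with a log2 fold change of -0.11 ± 0.28 (SE). Of 19 tested genes of a hypoxia and MYC list, with LDHA, PDK1 and SLC2A1 left out, 12 were lower and 7 higher. Their median was -0.29, and 47.1% of all features were lower. Among these genes, 3 were lower (2.72% of all features) and 1 higher (1.95% of all features) at an unadjusted p under 0.05, all 4 named here after their values were seen.

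DDIT4, a stress-induced inhibitor of mTORC1, measured 706, 995, 3667, 2192 and 1288 CPM in control and 655, 498, 647 and 723 CPM in treatment libraries. The groups overlapped through control replicate 2 alone, with a log2 fold change of -1.78 ± 0.53 (SE). VEGFA, the endothelial growth factor, measured 10.4, 15.8, 9.12, 14.1 and 8.63 CPM in control and 3.08, 1.93, 6.43 and 6.37 CPM in treatment libraries. These groups lay apart (0.55% of all features did so in this direction), with a log2 fold change of -1.62 ± 0.50 (SE). BNIP3, a mitophagy receptor, had a log2 fold change of -1.0 ± 0.39 (SE). ADM, adrenomedullin, had 2.40 ± 0.90 (SE), and 0.73 without treatment replicate 4.

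**Figure D5:**
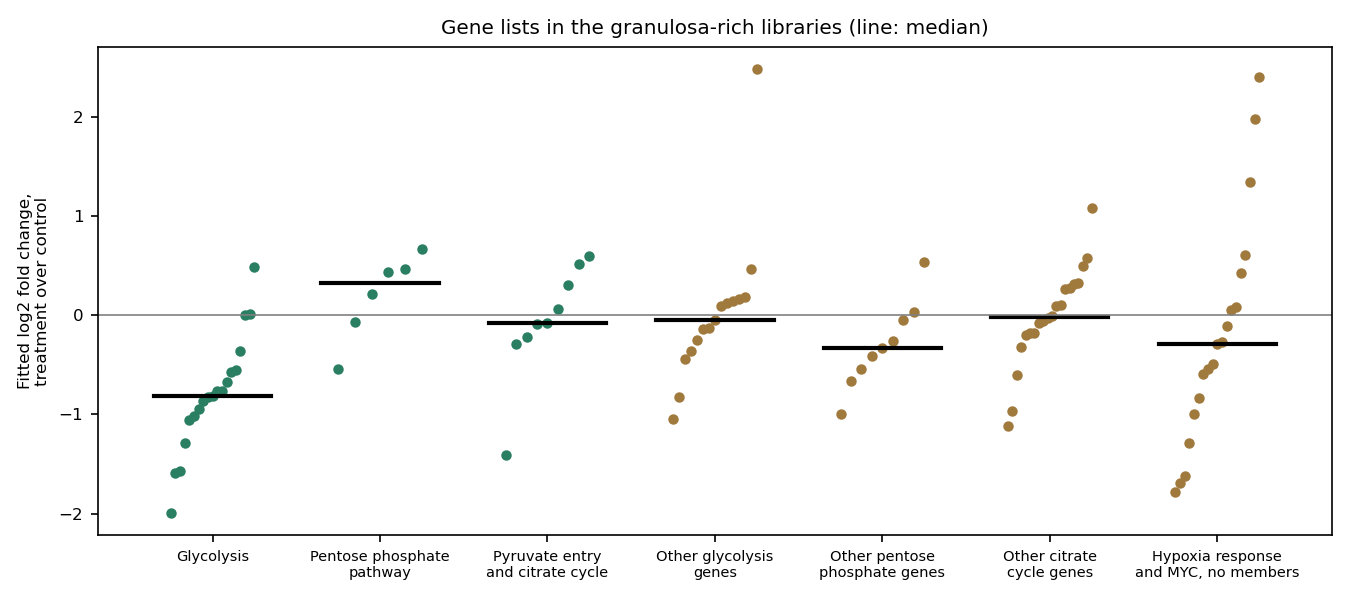
Fitted log2 fold change of treatment against control in the granulosa-rich libraries for the genes of each list; each point is 1 gene and the bar marks the median. The glycolysis members have a median of -0.82, the other glycolysis genes -0.05 and the further citrate cycle genes -0.02.

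Markers of other cells also had unequal values between labels in the granulosa-rich libraries, though none passed the test after adjustment and their sums overlapped. All 9 tested monocyte and macrophage markers had higher fitted values in treatment (52.9% of all features), with a median log2 fold change of 1.43. Of these, 1 had an unadjusted p under 0.05 (1.95% of all features were higher in this way), and the summed level was 26.7 to 785 CPM in control and 361 to 1940 CPM in treatment libraries. The 9 tested pan-leukocyte markers also had fitted values above 0 (median 0.53), with sums of 15.5 to 1073 CPM in control and 261 to 921 CPM in treatment libraries. Fitted values of theca and stroma markers were below 0 in 6 of 7, against 47.1% of all features (sums of 430.2 to 2958 against 187 to 1105 CPM). Of 16 tested granulosa markers 12 had fitted values below 0 (median -0.43), 1 of them with an unadjusted p under 0.05 (2.72% of all features were lower in this way). Summed granulosa markers were 117892 to 166666 CPM in control and 121152 to 165817 CPM in treatment replicates 4 to 6, against 56623 CPM in treatment replicate 7, where CYP19A1, the aromatase, was at 276 CPM. The part of these cells in the glycolysis values was not tested. With the pan-leukocyte score as a covariate LDHA had a log2 fold change of -1.67, GAPDH of -0.86 and TPI1 of -0.80. That score holds pan-leukocyte markers only, so the monocyte and macrophage, theca and stroma, and granulosa markers are not in it. Without treatment replicate 7, the log2 fold change was -1.76 for LDHA, -0.78 for GAPDH, -0.77 for TPI1 and -1.30 for PDK1.

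The scaling also bears on these values, because the 10 most abundant features took 14.8 to 25.5% of the counts of a granulosa-rich library. With library size alone the median of all features moved from 0.04 to 0.19, the share of features below 0 moved from 47.1% to 35.2%, and the glycolysis median became -0.63, with 16 of 19 genes still below 0. Under that scaling LDHA had -1.33, GAPDH -0.68, TPI1 -0.63 and PDK1 -1.21.

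In the leukocyte-rich libraries the glycolysis genes had no common direction between labels. Their summed level averaged 19906 ± 7057 CPM over the 4 control libraries and 20332 ± 4089 CPM over the 3 treatment libraries (mean ± SD). The single libraries held 24712, 22513, 22983 and 9416 CPM in control and 18296, 17660 and 25039 CPM in treatment. Control replicate 9 stood below all others, and its values touch every glycolysis comparison in this kind of library. By edgeR's test 0 of 34 members and 0 of 9912 features passed (percent called: 0%), and 259 features had an unadjusted p under 0.05. DESeq2 called 0 features as well. Summed granulosa markers were 368, 191, 895 and 359 CPM in control and 6639, 413 and 164 CPM in treatment libraries. Theca and stroma markers summed to 1316, 1806, 2321 and 532 CPM in control and 7856, 11020 and 401 CPM in treatment libraries. Pan-leukocyte markers summed to 7163, 7016, 7038 and 7878 CPM in control and 6719, 5582 and 6909 CPM in treatment libraries. Of 14 tested granulosa markers 1 had a fitted value below 0, and of 9 theca and stroma markers 0, against 48.9% of all features. The part of these cells in the label effects here was not tested.

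Fitted values were below 0 in 11 of 19 glycolysis, 3 of 6 pentose phosphate and 6 of 9 citrate cycle genes, against 48.9% of all features. Their medians were -0.03, 0.06 and -0.01, beside 0.01 for all features. The 1 member that was lower with an unadjusted p under 0.05 (1.2% of all features) was PFKP, at 329, 258, 262 and 367 CPM in control and 273, 222 and 168 CPM in treatment libraries. Treatment replicate 1 lay within the control range, and the log2 fold change was -0.47 ± 0.19 (SE; edgeR, unadjusted p = 0.042, adjusted p = 0.9996). FH followed with 20.0, 22.5, 20.5 and 20.4 CPM in control and 17.2, 20.3 and 13.8 CPM in treatment libraries, and IDH3B with 11.3, 12.6, 11.5 and 12.9 CPM against 9.56, 12.0 and 7.26 CPM. Their log2 fold changes were -0.29 ± 0.19 and -0.34 ± 0.22 (SE), and the groups overlapped in both on the CPM scale. With TMM scaling FH and IDH3B were lower in every treatment library (2.24% of all features).

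The genes that lay apart in granulosa-rich libraries did not do so here. LDHA measured 365, 531, 322 and 72.5 CPM in leukocyte-rich control and 212, 199 and 539.8 CPM in treatment libraries and a log2 fold change of -0.0028 ± 0.67 (SE). The lowest library was a control and the highest a treatment library. A transcript of LDHA that held at most 10.4% of its counts in the other libraries held 14.5% in control replicate 5 and 33.4% in treatment replicate 3, the highest LDHA libraries. GAPDH measured 6456, 6116, 5771 and 2243 CPM in control and 4419, 4767 and 5345 CPM in treatment libraries. Without control replicate 9 every treatment library would lie below every control library; with it the log2 fold change was -0.09 ± 0.37 (SE).

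TPI1 showed the same arrangement, with 3263, 2642, 2757 and 1321 CPM in control and 2121, 2125 and 2352 CPM in treatment libraries. PDK1 measured 369, 322, 313 and 85.3 CPM in control and 276, 256 and 357 CPM in treatment libraries, and the groups overlapped. No member had every treatment library below every control library (1.85% of all features), and 1 member, TALDO1, had every treatment library above (1.99% of all features). TALDO1 measured 39.1, 37.6, 34.2 and 37.5 CPM in control and 40.6, 41.6 and 47.7 CPM in treatment libraries, a log2 fold change of 0.23 ± 0.16 (SE). With TMM scaling the TALDO1 groups overlapped, and no member was higher in every treatment library (2% of all features). Without control replicate 9 the number of members lower in every treatment library became 5 (3.43% of all features) and the glycolysis median -0.29.

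The remaining fixed genes of this kind of library overlapped between labels. SLC2A1 measured 362, 300.4, 495 and 181 CPM in control and 329, 223 and 505 CPM in treatment libraries. PFKL had 1231, 999, 892 and 473 CPM in control and 638, 760.0 and 1149 CPM in treatment libraries, and PKM had 127, 118, 107 and 64.8 CPM against 107, 82.9 and 100.5 CPM. PGD measured 349, 601, 477 and 387 CPM in control and 453, 373 and 1048 CPM in treatment libraries, and TKT 632, 869, 551 and 590.0 CPM against 565, 509 and 1222 CPM. Treatment replicate 3 held the highest PGD and TKT. SLC2A3 was also highest there, at 5827 CPM against 392 to 2402 CPM.

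HK1 measured 19.8, 19.0, 22.7 and 11.6 CPM in leukocyte-rich control and 21.4, 20.4 and 14.8 CPM in treatment libraries. PFKM had 0.295, 0.449, 0.888 and 0 CPM in control and 1.33, 1.23 and 0.422 CPM in treatment libraries, and OGDH 0, 0.0898, 0.242 and 0 CPM against 0, 0.164 and 0 CPM, at few counts each. PDHA1 measured 153, 179, 204 and 183 CPM in control and 196, 211 and 189.6 CPM in treatment libraries, and CS 16.3, 25.0, 30.7 and 22.1 CPM against 22.4, 24.3 and 16.9 CPM. None of these values separated the labels.

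The difference of the label effect between the kinds of library was tested itself, as an interaction over 11468 features. By edgeR no member and no feature passed (percent called: 0%), 609 features had an unadjusted p under 0.05, and the lowest adjusted p of a member was 0.911. DESeq2 called 24 features, and whether members were among them was not looked at. The label effect was lower in the granulosa-rich than in the leukocyte-rich libraries in 17 of 19 glycolysis, 2 of 6 pentose phosphate and 3 of 9 citrate cycle genes, against 47% of all features. Of the members, 2 glycolysis genes and PDK1 had an unadjusted p under 0.05 in this direction, against 2.62% of all features. The difference was -1.57 ± 0.74 (SE) for LDHA, -1.83 ± 0.82 (SE) for SLC2A3 and -1.50 ± 0.60 (SE) for PDK1 on the log2 scale. By edgeR the effect of the label was therefore not shown to differ between the kinds.

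Over all 16 libraries together, 0 of 34 members and 0 of 9653 features passed (percent called: 0%), with 163 features at an unadjusted p under 0.05. Fitted values were below 0 in 17 of 19 glycolysis genes (median -0.36), 2 of 6 pentose phosphate genes (median 0.24) and 5 of 9 citrate cycle genes (median -0.03), against 47.9% of all features. ENO1 was the 1 member that was lower with an unadjusted p under 0.05 (0.901% of all features), at -0.65 ± 0.25 (SE). LDHA had -0.46 ± 0.59 (SE) and PDK1 -0.70 ± 0.36 (SE) in this fit, which mixes both kinds of library.

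Between the kinds of library, which were set from the same counts and were not tested, 7 of 34 members were higher in every leukocyte-rich than in every granulosa-rich library, against 10.3% of all 11468 features tested. These were GPI, PFKP, PGAM1 and PFKFB3 of glycolysis, TALDO1 and RPE of the pentose phosphate pathway, and PDHB. PFKP had a median of 262 CPM in leukocyte-rich and 46.5 CPM in granulosa-rich libraries. PFKFB3 had medians of 11.7 and 0.952 CPM, and TALDO1 of 39.1 and 11.1 CPM. No member was higher in every granulosa-rich library, against 5.25% of these features. IDH3A came closest, with 109 to 201 CPM in the leukocyte-rich libraries and 519 to 1737 CPM in all granulosa-rich libraries except treatment replicate 7, at 133 CPM.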

How the data were processed

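The deposited values are whole-number counts of reads per RefSeq transcript, not normalized, 1 table per library. The submitters' processing notes name Bowtie2, SAMtools and cutadapt without versions. The genome build and the handling of reads that match more than 1 transcript were not given in the sources used here. Per the labels' protocols poly(A) RNA was isolated from 200 ng of total RNA (RNA integrity number 7 or more), with 12 cycles of amplification and a kit that does not mark strand, so reads of overlapping and antisense genes cannot be told apart.

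An accession without a line was taken as 0. Of 27306 accessions, 133 genomic records were left out; they held 0.712 to 1.92% of a library's counts. Symbols came from RefSeq's gene table of ARS-UCD2.0, used for names only (18973 of 27173 transcripts matched, versions ignored). Counts were summed per gene, which left 20629 features, and CPM used the sum of a library's transcript counts. Libraries held 8111862 to 14348753 counts with the genomic records included, and limits of 3 counts cover counting error only.

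Labels were compared with edgeR 4.0.16 (R 4.3.3, quasi-likelihood, robust estimation, TMM scaling, filter by label, Benjamini-Hochberg adjustment over all features, threshold 0.05). A standard error is the fitted log2 fold change over the root of its F value. Alternatives were other scalings and filters, DESeq2 1.42.0, limma-voom (limma 3.58.1), a replicate block, edgeR without robust estimation, 1 model over all libraries, a pan-leukocyte covariate and each library left out. Leaving out treatment replicates 5 and 7 together was added after the data were seen. The test was also tried on simulated data. Of planted log2 fold changes of 1 in either direction, it called 0% of 98 in the granulosa-rich and 2% of 100 in the leukocyte-rich design. Of changes of 2 it called 20.2% of 99 and 27% of 100. False calls numbered 2 in each design. Changes were planted only in features with an average log2 CPM of at least 1, so genes of lower level are not covered.

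The members, the other gene lists and the comparisons were chosen with earlier results of these data known. All members are accounted for. Values in every granulosa-rich library are given for members whose granulosa-rich groups do not overlap and for HK1, PFKL, PFKM, PFKP, PKM, LDHA, SLC2A1, PDK1, PGD, TKT, PDHA1, CS and OGDH, whatever their values. To these come the 3 members with the lowest p in the leukocyte-rich libraries, and IDH2, HIF1A and the 2 genes with the lowest p of each further list; some genes that this rule names are not reported here. GPI, PGK1, ENO1, SLC2A3, IDH3A, SUCLA2, DDIT4, VEGFA, BNIP3 and ADM were given values of single libraries or named after their values were seen.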

Additional observations from a re-analysis of the deposited data

Results flagged for a closer look

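Within the groups of 4 or 5 libraries, 102 combinations of gene and group were looked at for a library far from the others of its group, and 6 were marked; chance marks about 1 in 20 groups. In the leukocyte-rich control libraries GAPDH was at 2243 CPM in replicate 9, against 5771 to 6456 CPM in the other libraries of the group. Treatment replicate 5 of the granulosa-rich libraries stood apart in 3 genes. It had LDHA at 16.6 CPM against 58.1 to 64.0 CPM, SLC16A1 at 1.12 CPM against 10.1 to 11.6 CPM, and IDH3B at 42.3 CPM against 6.69 to 12.8 CPM. This library also had the fewest features with a count, 11395. Granulosa-rich control replicate 7 had RPIA at 7.62 CPM against 21.0 to 26.2 CPM. Granulosa-rich treatment replicate 7 had SUCLA2 at 2723 CPM against 159 to 219 CPM.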

How the results depend on the processing

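The number of features called in the granulosa-rich libraries stayed at 0 in 20 of 21 alternatives and was 27 with DESeq2; for the difference between kinds it was 24 with DESeq2 and 0 in the 23 others. The glycolysis median in granulosa-rich libraries lay between -1.06 and -0.63 over its 21 alternatives, and GAPDH between -1.12 and -0.68, TPI1 between -1.06 and -0.63 and PDK1 between -2.24 and -1.11. PFKP turned to -0.0079 with upper-quartile scaling, -0.075 with limma-voom, -0.017 with the pan-leukocyte covariate and -0.77 without treatment replicates 5 and 7, and leaving out 1 library gave -0.24 to 0.23. CS turned to -0.25 with limma-voom and reached 1.55 with the replicate block, its range over 20 alternatives. The pentose phosphate median was 0.084 without treatment replicates 5 and 7 and 0.035 to 0.41 with 1 library left out, the lowest being 0.035 without treatment replicate 5 and 0.13 without treatment replicate 7. In the leukocyte-rich libraries leaving out 1 library gave medians of -0.20 to 0.14 for the pentose phosphate pathway and -0.18 to 0.0020 for the citrate cycle, the lowest values being those without treatment replicate 3 and without control replicate 9. The count of members lower in every granulosa-rich treatment library was 7 with TMM (0.917% of all features), 7 with DESeq2 size factors (0.82%), 9 with upper-quartile scaling (0.895%) and 4 to 7 with 1 library left out (0.582 to 1.52%), among them 7 each without control replicate 7 and without treatment replicate 5. In the leukocyte-rich libraries it was 2, 2 and 1 under these scalings (2.24, 2.49 and 2.16% of all features) and 0 to 5 with 1 library left out (3.09 to 6.38%; 5 without control replicate 9, 4 without treatment replicate 2, 2 without treatment replicate 1 and 1 without control replicate 1). The cause of these shifts was not tested.

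With the replicate number as a block, the granulosa-rich medians were 0.038 for the pentose phosphate pathway and -0.34 for the citrate cycle. PFKP had -0.25 and IDH3B -1.16 in that fit. Only replicate numbers 4 and 7 occur under both labels in these libraries, so its label effects rest on those numbers alone. It leaves hardly any libraries to measure spread, so the absence of called features in it shows nothing. Over 7 pairs of same-numbered libraries the correlation of their deviations ran from -0.60 to 0.60, and 0 of 7 correlated best with its own number. The kind of library was not removed from these deviations. Numbers 1, 4 and 7, whose libraries are of the same kind, had 0.60, 0.31 and 0.44. Numbers 2, 3, 5 and 6, of unlike kinds, had -0.60, -0.27, -0.45 and -0.60. The correlations therefore cannot show whether equal numbers mark a pair.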
